A study of Mus musculus with 10 samples.

Results

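The genes that shape mitochondria in gastrocnemius muscle were compared between D257A mice (5 males) and WT mice (5 males) aged 13 months, with 1 Affymetrix mouse array for each animal. Members were the 9 genes Mfn1, Mfn2, Opa1, Dnm1l, Fis1, Mff, Oma1, Yme1l1 and Immt, and every probe set that named exactly 1 of these symbols was taken, without regard to its signal. This gave 26 of the 45101 probe sets on the array, and 9 of the 18193 genes that at least 1 probe set named alone. D257A mice are homozygous for a knock-in allele of Polg (PolgD257A/D257A), which encodes the catalytic subunit of the mitochondrial DNA polymerase γ and here lacks proofreading, and WT mice carry Polg+/+. Both genotypes came from a mixed stock of 129Sv, ICR and B6 ancestry that had been backcrossed into C57Bl/6J. The allele is present in every cell from conception, so muscle fibres and the other cells of the tissue all carried it.

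Mitochondria of muscle fibres fuse, divide and fold their inner membrane, and large GTPases of the dynamin family carry out much of this work. Mfn1 and Mfn2 join outer membranes, Opa1 joins inner membranes and helps hold the cristae, the infolds that carry the respiratory chain, and the peptidases Oma1 and Yme1l1 cut Opa1 into its long and short forms. Dnm1l (also known as Drp1) is recruited from the cytosol by receptors such as Mff and constricts the organelle, while Immt (mitofilin, Mic60) is the core of the MICOS complex at the necks of the cristae. Fusion lets mitochondria with different mtDNA copies share their contents, and fibres that lose it are known to accumulate mtDNA mutations.

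The deposited signals were brought to a common level by scaling each array to a trimmed mean of 500, and every value below is this scaled signal or its log2. Log2 fold changes are D257A minus WT. The 22518 probe sets brighter than the median were tested with limma, and a probe set is called where its adjusted p (Benjamini-Hochberg over all of them) was under 0.05. Trimmed means before scaling lay between 93.5 and 106 in D257A mice, against 94.5 to 129 in WT mice, the highest in WT mouse 1-13M. Of 10 skeletal muscle markers 10 were above the filter on dim probe sets and 0 were called different, and fast troponin T (Tnnt3) averaged 66168 ± 1570 in D257A mice, against 62728 ± 5837 in WT mice (SD, n = 5 each). Of 8 cochlear markers, listed because a protocol line of the descriptions names cochlea, 2 were above the filter, and the summed signal of all 8 was 352 to 530 in D257A mice, against 486 to 545 in WT mice. Markers of other cell types also differed between genotypes. Of 9 tested macrophage markers (Itgam was under the filter) 5 were higher in D257A mice (Lyz2, Mrc1, Ctss, Lgals3 and Fcgr3), with a summed signal of 9501 to 13481 in D257A mice against 7182 to 8560 in WT mice. Of 6 fibroblast markers 3 were lower (Col1a1, Col1a2 and Col3a1), with a summed signal of 20754 to 24680 in D257A mice against 20819 to 34094 in WT mice, and these 8 genes are named after their values were seen. The fibroblast count was 1 without WT mouse 1-12M, 2-3M, 2-32M or 3-18M, with a block for how the mouse numbers begin (1, 2 or 3), with the methods' test and without a variance trend. Of 5 adipocyte markers 1 was higher (Retn), of 6 endothelial markers 1 was higher (Vwf), and of 3 Schwann cell markers 0 were called. The other markers of these lists did not all share that sign. Log2 fold changes were negative for 2 of the 5 adipocyte markers (median of the list 0.30) and 4 of the 6 endothelial markers (median -0.05). Retn was near the threshold (limma adjusted p = 0.0452), and 0 adipocyte markers were higher with any 1 of the 5 D257A mice or WT mouse 2-3M left out, with that block, with the methods' test, with no filter and without a variance trend. Slow fibre markers had a median log2 fold change of 0.20, with 0 of 8 called. The part of these cells in the results was not tested, and in a bulk sample fewer cells of a type and less RNA per cell cannot be told apart. The 3 probe sets of Polg had log2 fold changes of 0.09, 0.23 and 0.85 (limma adjusted p = 0.768, 0.422 and 0.18), and since the allele changes a residue of the protein, mRNA levels do not check the labels.

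Mfn1 was lower in D257A mice on both of its bright probe sets, where the mean log2 signal differed by -0.40 and -0.43, and 1 of 3 Immt probe sets was lower as well. Opa1 had negative log2 fold changes on all 3 of its probe sets and was not called, and Mfn2, Dnm1l, Fis1, Mff, Oma1 and Yme1l1 had 0 called probe sets. Of the 26 probe sets 22 passed the filter, and 3 of these 22 (13.6%) were lower in D257A mice and 0 higher at a limma adjusted p under 0.05, where 3.74% of all 22518 tested probe sets were lower and 3.64% higher. A negative log2 fold change (D257A minus WT) was found for 20 of the 22, with a median of -0.19, against 53.7% of all tested probe sets and a median of -0.03. With each array centred on its median signal, 15 of the 22 were negative. Their median was then -0.06, against 0.10 over all tested probe sets. With each gene read from its brightest probe set, the log2 fold change was negative for 9 of 9 genes, between -0.40 and -0.04, but with each array centred on its median signal, which moves the median of all probe sets by 0.13, it was negative for 6 of 9 and positive for Fis1, Mff and Oma1. By the brightest probe set and without that centring, 1 of 9 genes (11.1%), Mfn1, was lower, where 3.52% of 11216 tested genes were.

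Over the 19 alternatives, the count of called member probe sets was highest without WT mouse 1-13M, where 9 of the 22 (40.9%) were lower and 0 higher, against 7.92% of all probe sets that were lower and 7.35% higher. The 9 were 2 of Mfn1, 3 of Opa1, 3 of Dnm1l and 1 of Immt. By the brightest probe set 3 of 9 genes (33.3%) were then lower, Mfn1, Opa1 and Dnm1l, where 8.33% of genes were. On the scaled signal, WT mouse 1-13M was the lowest WT mouse for 7 of the 9 genes (34.2% of all tested genes), so leaving it out raises the WT mean of those genes. Without WT mouse 3-18M, the highest for 5 of the 9, 4 of the 22 were lower and 0 higher. Most other removals lowered the count of 3. It was 1 without WT mouse 1-12M or 2-3M, and 2 without WT mouse 2-32M or D257A mouse 2-17M, 2-25M or 2-30M. It was 3 without D257A mouse 2-27M and 4 without D257A mouse 2-21M. The median log2 fold change of the 9 genes was -0.25 without 1-13M and -0.12 without 3-18M, against -0.17 with all mice. With each array centred on its median, 0 of the 22 were called.

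**Figure D1:**
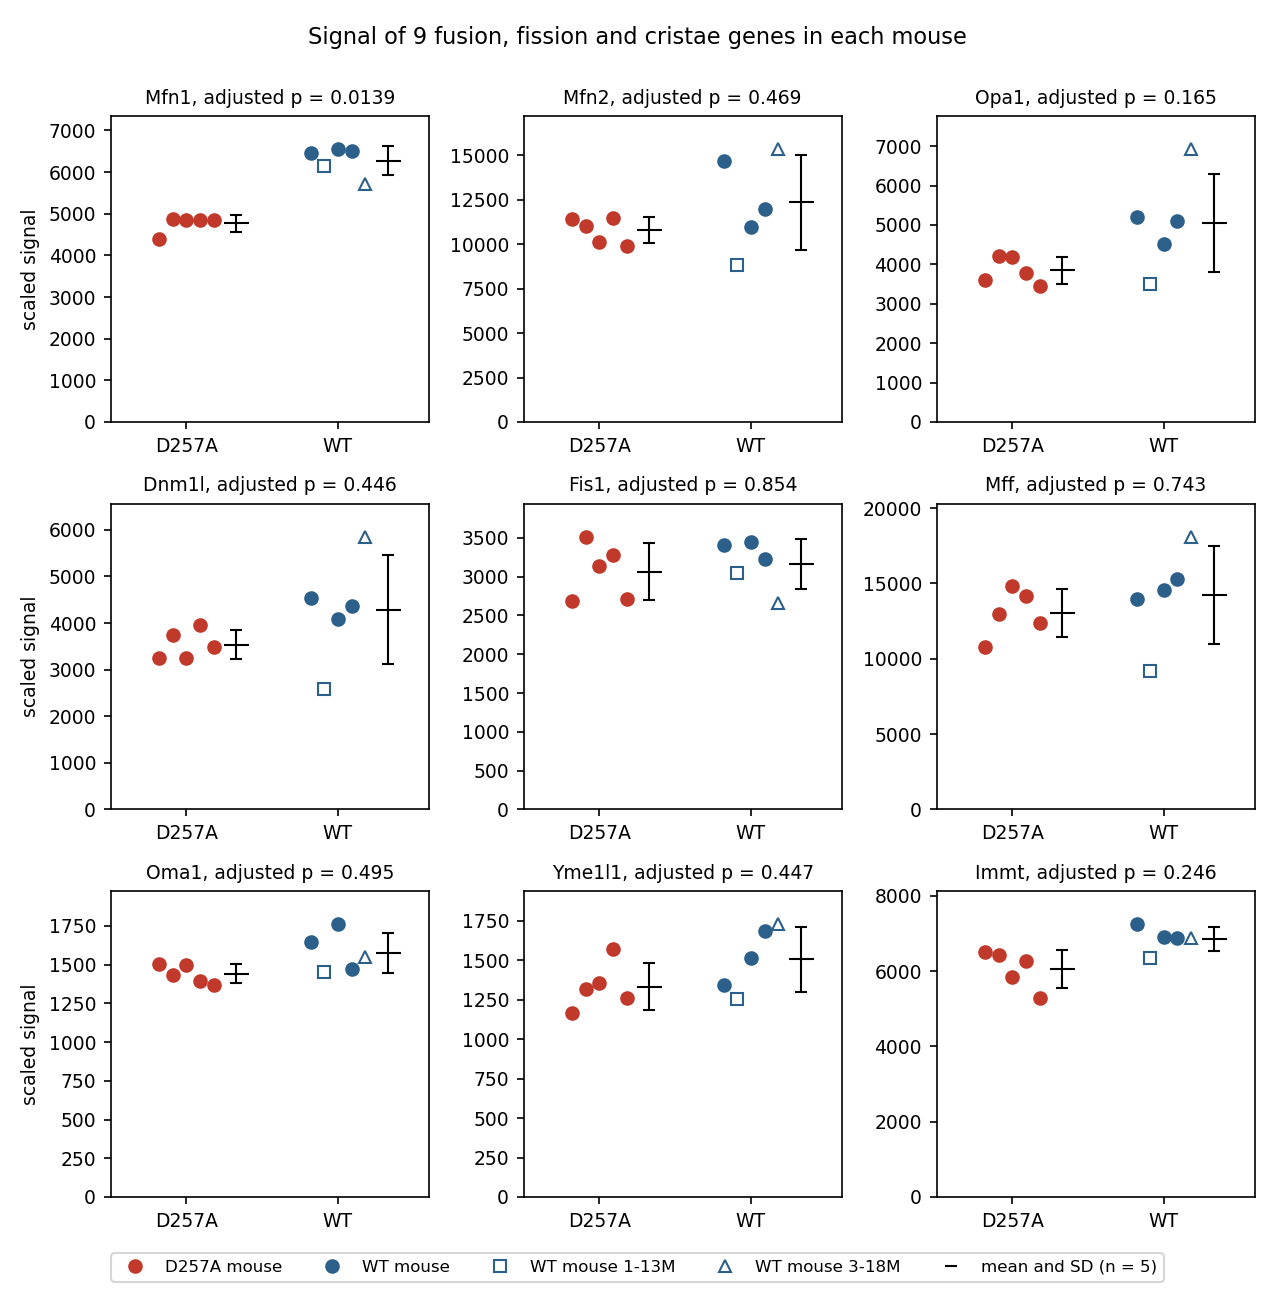
Scaled signal, on axes that start at 0, of the brightest probe set of each of the 9 genes in each mouse, D257A (red) left of WT (blue), with the mean and SD of 5 mice; the open square is WT mouse 1-13M and the open triangle WT mouse 3-18M. The genotypes are apart for Mfn1, with D257A mice at 4384 to 4886 and WT mice at 5709 to 6554, and overlap in the other 8 panels.

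Mfn1 and 1 Immt probe set were called. The dimmer Opa1 probe sets lay near the threshold (limma adjusted p = 0.0534 and 0.0522) and the brightest did not (limma adjusted p = 0.165). Mfn2, the closest relative of Mfn1, had a smaller difference. Promoter sequences are therefore shown for these 4 members. They are RefSeq windows of 300 bases on GRCm38.p6, with 250 bases before the start of the transcript and 50 from it on, written 5′ to 3′ on the strand of the gene. Capitals mark matches, on either strand, to CCGGAAG, a motif of the ETS factor GABP (also called NRF2), and to CATGCGC, part of the motif of NRF1, whose matches can overlap each other. Both factors are known for their role in the transcription of nuclear genes for mitochondrial proteins. Mfn1 lies at chr3:32529232-32529531 (plus strand), Mfn2 at chr4:147904612-147904911 (minus strand, 1 of 3 windows of the gene), Opa1 at chr16:29579084-29579383 (plus strand) and Immt at chr6:71831070-71831369 (plus strand).
Mfn1: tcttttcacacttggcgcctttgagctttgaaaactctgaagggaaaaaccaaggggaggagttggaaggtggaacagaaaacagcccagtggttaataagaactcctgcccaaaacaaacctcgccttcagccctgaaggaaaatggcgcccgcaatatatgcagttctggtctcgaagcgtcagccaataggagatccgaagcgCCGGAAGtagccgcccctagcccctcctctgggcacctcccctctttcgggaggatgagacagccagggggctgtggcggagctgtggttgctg
Mfn2: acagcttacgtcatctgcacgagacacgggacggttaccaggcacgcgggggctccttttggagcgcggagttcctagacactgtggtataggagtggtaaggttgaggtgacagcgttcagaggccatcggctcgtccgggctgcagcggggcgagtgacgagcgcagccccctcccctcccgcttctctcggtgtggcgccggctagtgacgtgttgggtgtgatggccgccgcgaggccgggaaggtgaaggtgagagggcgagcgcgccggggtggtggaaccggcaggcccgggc
Opa1: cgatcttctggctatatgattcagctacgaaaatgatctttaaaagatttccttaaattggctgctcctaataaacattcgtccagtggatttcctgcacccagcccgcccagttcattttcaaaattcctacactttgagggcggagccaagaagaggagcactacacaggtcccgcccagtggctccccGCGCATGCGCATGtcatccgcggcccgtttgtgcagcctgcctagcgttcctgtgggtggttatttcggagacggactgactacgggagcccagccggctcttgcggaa
Immt: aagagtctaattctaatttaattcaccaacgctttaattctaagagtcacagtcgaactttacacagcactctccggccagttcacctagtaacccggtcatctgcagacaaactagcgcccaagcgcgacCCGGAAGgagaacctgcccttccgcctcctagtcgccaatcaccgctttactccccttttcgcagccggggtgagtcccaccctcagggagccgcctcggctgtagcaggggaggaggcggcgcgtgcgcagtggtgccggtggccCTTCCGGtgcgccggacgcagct

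The Mfn1 window held 1 CCGGAAG, beginning at base -44 where the first base of the transcript is 0. The Immt window held CCGGAAG at bases -119 and 27, and the Opa1 window held CATGCGC in 3 overlapping matches that began at bases -59, -56 and -53. Neither motif was in the 3 Mfn2 windows. Over the 14 windows of the 9 genes, CCGGAAG was in 6 windows of 5 genes (Mfn1, Dnm1l, Fis1, Yme1l1 and Immt), and CATGCGC was in the Opa1 window alone. In all 32851 windows of the table these motifs were in 8.86% and 3.91%, and AAGGTCA, a motif of the estrogen-related receptors, was in 4.72% and in 0 member windows. Fis1, with CCGGAAG in both windows, had a log2 fold change of -0.04. A match to these letters is a description of the sequence and not a measured binding site.

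Of the outer membrane fusion genes, Mfn1 was lower in D257A mice and Mfn2 was not called. Signals by mouse are given in the order 2-17M, 2-21M, 2-25M, 2-27M and 2-30M for D257A mice and 1-12M, 1-13M, 2-3M, 2-32M and 3-18M for WT mice. The brightest Mfn1 probe set, 1426773_at, had 4384, 4886, 4858, 4851 and 4852 in D257A mice, against 6464, 6145, 6554, 6504 and 5709 in WT mice. Every D257A mouse was below every WT mouse, and 4 of the 5 D257A mice lay between 4851 and 4886. The mean was 4767 ± 214 in D257A mice, against 6275 ± 355 in WT mice (SD, n = 5 each), a log2 fold change of -0.40 (standard error 0.09, limma adjusted p = 0.0139 with Benjamini-Hochberg adjustment over all tested probe sets). The second Mfn1 probe set, 1449697_s_at, had 3883, 4355, 4870, 4817 and 4827 in D257A mice, against 6587, 5786, 6499, 6114 and 5660 in WT mice. Here too every D257A mouse was below every WT mouse, as held for 3 of the 22 member probe sets (13.6%) and for 3.77% of all tested probe sets, and the log2 fold change was -0.43 (standard error 0.10, limma adjusted p = 0.0172). The last, dim Mfn1 probe set (1419997_at), made from the same database sequence as the second, ranged from 76.0 to 237 in D257A mice, against 149 to 314 in WT mice, at a log2 fold change of -0.53 that was not called (standard error 0.30, limma adjusted p = 0.305). Probe sets of 1 gene read RNA of that gene in the same mice, so they are not independent of each other. Whether they read the same transcript was not checked. Probe sequences were not at hand, so whether a probe set such as 1449697_s_at also binds other RNAs was not checked. Within mice whose number begins with 2 (5 D257A and 2 WT), the log2 fold changes of the bright Mfn1 probe sets were -0.46 and -0.48 (limma adjusted p = 0.0154 and 0.0291). The first digit of the number as a block gave the same values at limma adjusted p = 0.0484 and 0.0716. Every D257A number begins with 2, so both settings compare the same 5 D257A and 2 WT mice and are not separate checks. Probe set 1449697_s_at was also not called without WT mouse 1-12M or 2-3M (limma adjusted p = 0.0519 and 0.0524). With each array centred on its median, the bright Mfn1 probe sets were at -0.26 and -0.30 (limma adjusted p = 0.0912 and 0.0804).

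Mfn2, which in addition tethers mitochondria to the endoplasmic reticulum, had 11405, 11002, 10138, 11494 and 9872 in D257A mice, against 14650, 8855, 10983, 11996 and 15350 in WT mice (probe set 1448131_at). The D257A mice lay inside the range of the WT mice, in which 1-13M was lowest and 3-18M highest. The mean was 10782 ± 740 in D257A mice, against 12367 ± 2669 in WT mice (SD, n = 5 each), and the log2 fold change of -0.17 was not called (95% interval -0.46 to 0.11, limma adjusted p = 0.469). The other Mfn2 probe set, 1451900_at, lay under the filter, at 2.8 to 65.4 in D257A mice, against 5.4 to 45.9 in WT mice. The difference between the paralogs was itself tested. Mfn2 minus Mfn1 within a mouse was higher by 0.22 on the log2 scale in D257A mice, with 0 of 5 D257A mice outside the WT range, and did not pass an exact permutation test that was 2-sided and used every assignment of mice (p = 0.246, 0.369 adjusted over 3 pairs of genes, where 0.00794 is the smallest p that 5 mice against 5 can give). That Mfn1 was called and Mfn2 was not therefore does not show that they differed in their response.

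**Figure D2:**
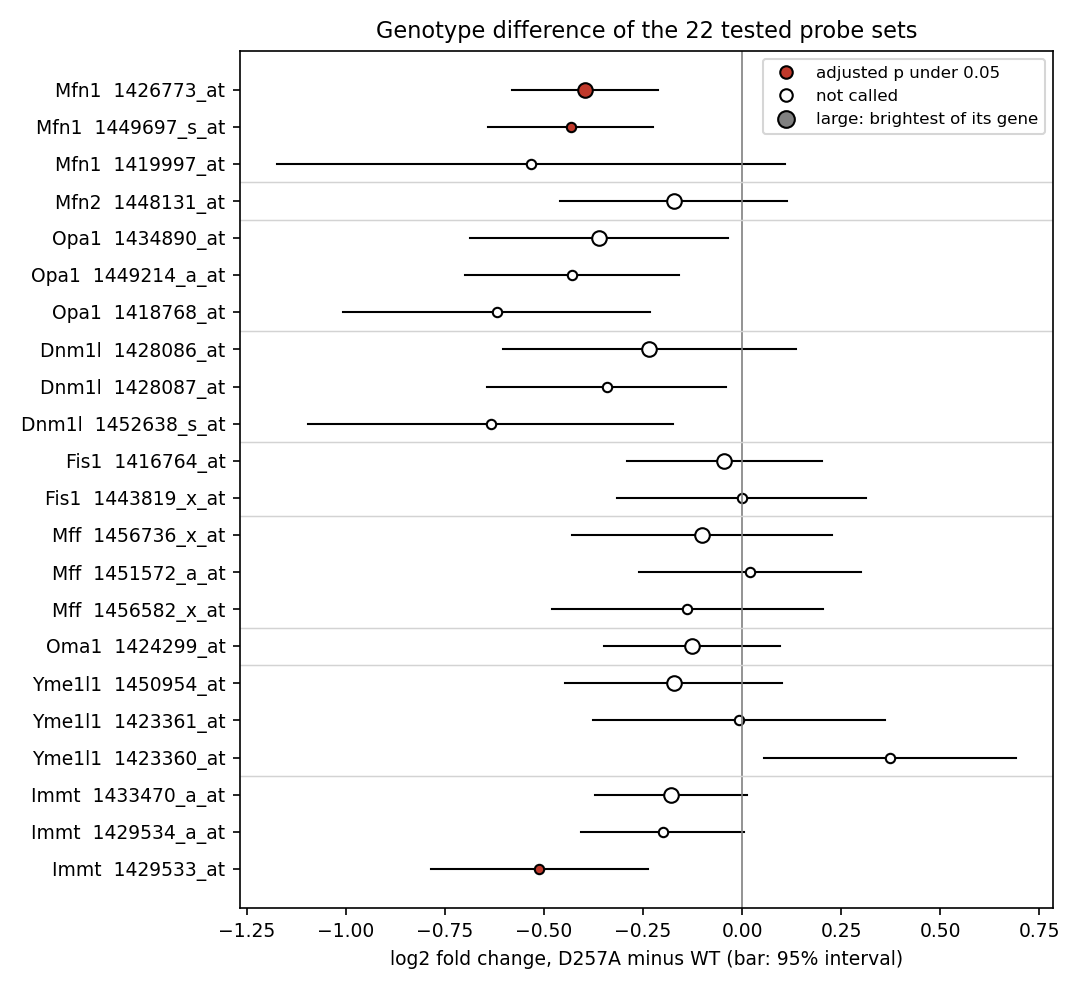
Log2 fold change (D257A minus WT) of the 22 tested probe sets with limma's 95% interval, grouped by gene, where filled points have an adjusted p under 0.05 and large points are the brightest probe set of a gene. The 3 filled points are 2 of Mfn1 (-0.40 and -0.43) and 1 of Immt (-0.51), and 20 of the 22 points lie below 0.

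Opa1, the GTPase of inner membrane fusion, was not called on any probe set, although each of its 3 had an unadjusted p under 0.05. The brightest, 1434890_at, had 3592, 4215, 4183, 3780 and 3459 in D257A mice, against 5194, 3497, 4514, 5092 and 6927 in WT mice. WT mouse 1-13M lay among the D257A mice and the other 4 WT mice were above them all. Its log2 fold change was -0.36 (95% interval -0.69 to -0.04, limma adjusted p = 0.165). Probe set 1449214_a_at had 594, 781, 770, 691 and 592 in D257A mice, against 1031, 872, 909, 917 and 863 in WT mice, with no overlap and a log2 fold change of -0.43 (standard error 0.13, limma adjusted p = 0.0534). Probe set 1418768_at ranged from 382 to 650 in D257A mice, against 546 to 1009 in WT mice, at a log2 fold change of -0.62 (standard error 0.18, limma adjusted p = 0.0522). Without WT mouse 1-13M the 3 log2 fold changes were -0.48, -0.45 and -0.62, all called (limma adjusted p = 0.0144, 0.0299 and 0.0387). The brightest probe set moved the other way without WT mouse 3-18M, its highest WT mouse, to -0.24 (limma adjusted p = 0.272). Probe set 1418768_at was also called without WT mouse 3-18M or without D257A mouse 2-21M (limma adjusted p = 0.0204 and 0.0369). The mean log2 signal of the 3 probe sets, used in place of the brightest, gave -0.47 (limma adjusted p = 0.0353).

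Oma1 and Yme1l1, the peptidases of the inner membrane that process Opa1, had 0 called probe sets. Oma1, which acts under stress of the membrane potential, had 1507, 1434, 1496, 1395 and 1369 in D257A mice, against 1644, 1454, 1762, 1470 and 1548 in WT mice. The groups overlapped narrowly, and the log2 fold change was -0.13 (95% interval -0.35 to 0.09, limma adjusted p = 0.495). Yme1l1, the catalytic subunit of the i-AAA protease, had 1163, 1317, 1355, 1568 and 1259 in D257A mice, against 1344, 1257, 1516, 1682 and 1729 in WT mice on its brightest probe set, 1450954_at (log2 fold change -0.17, 95% interval -0.45 to 0.10, limma adjusted p = 0.447). The Yme1l1 probe sets disagreed in sign. The dimmer 1423360_at, made from the same database sequence, had 421, 383, 302, 397 and 319 in D257A mice, against 329, 279, 234, 276 and 285 in WT mice, and its log2 fold change of 0.37 was the highest of the 22 and was not called (95% interval 0.06 to 0.69, limma adjusted p = 0.143). On this probe set 3 of 5 D257A mice were above all WT mice. Probe set 1423361_at, at 703 to 933 in D257A mice, against 590 to 1145 in WT mice, had a log2 fold change of -0.01 (limma adjusted p = 0.985), and 1437822_at was under the filter. Yme1l1 minus Oma1 differed between genotypes by -0.05 on the log2 scale (exact permutation p = 0.77, adjusted p = 0.77).

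The fission genes had 0 called probe sets over all 10 arrays. Dnm1l had 3246, 3738, 3250, 3950 and 3490 in D257A mice, against 4537, 2574, 4095, 4367 and 5855 in WT mice on its brightest probe set, 1428086_at. WT mouse 1-13M was the lowest of all 10 mice and the other 4 WT mice were above every D257A mouse, at a log2 fold change of -0.23 (95% interval -0.60 to 0.14, limma adjusted p = 0.446). Probe set 1428087_at ranged from 1511 to 2015 in D257A mice, against 1806 to 2721 in WT mice (log2 fold change -0.34, limma adjusted p = 0.156). Probe set 1452638_s_at ranged from 194 to 361 in D257A mice, against 293 to 587 in WT mice (log2 fold change -0.63, limma adjusted p = 0.09), and 1428008_at was under the filter, at 14.1 or less in D257A mice and 26.2 or less in WT mice. Without WT mouse 1-13M the 3 tested Dnm1l probe sets were called, at log2 fold changes of -0.41, -0.43 and -0.75 (limma adjusted p = 0.0266, 0.0301 and 0.026). Each of the 3 was called in this 1 of 19 alternatives alone. The brightest ranged from -0.41 to -0.10 over the 19, and its WT spread had 2 sides, with WT mouse 3-18M the highest of all 10 mice.

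Mff, the outer membrane receptor of Dnm1l, had 10775, 12994, 14822, 14167 and 12406 in D257A mice, against 13966, 9170, 14574, 15275 and 18110 in WT mice on its brightest probe set. WT mouse 1-13M was again below every D257A mouse, and the log2 fold change was -0.10 (95% interval -0.43 to 0.23, limma adjusted p = 0.743). That probe set, 1456736_x_at, and 1456582_x_at (log2 fold change -0.14, limma adjusted p = 0.648) carry the suffix that marks possible cross-hybridization, while 1451572_a_at had a log2 fold change of 0.02 (limma adjusted p = 0.945). The remaining Mff probe set, 1457371_at, was under the filter, at 25.2 to 69.4 in D257A mice, against 46.4 to 78.9 in WT mice. Fis1, a tail-anchored protein of the outer membrane that in yeast recruits the fission dynamin, had 2687, 3517, 3140, 3280 and 2708 in D257A mice, against 3413, 3043, 3449, 3226 and 2661 in WT mice (probe set 1416764_at). The genotypes overlapped almost wholly, at a log2 fold change of -0.04 (95% interval -0.29 to 0.20, limma adjusted p = 0.854). The second Fis1 probe set, 1443819_x_at, which also carries the suffix for possible cross-hybridization, was at -0.0013 (95% interval -0.32 to 0.31). Dnm1l minus Mff differed by -0.13 between genotypes on the log2 scale, with 2 of 5 D257A mice below the WT range (exact permutation p = 0.206, adjusted p = 0.369).

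Immt had 3 tested probe sets, and 1 of them was lower in D257A mice. Probe set 1429533_at had 2600, 2824, 2178, 2709 and 2090 in D257A mice, against 3869, 3899, 3404, 3730 and 2784 in WT mice. D257A mouse 2-21M was just above WT mouse 3-18M, and otherwise the genotypes were apart. The mean was 2480 ± 328 in D257A mice, against 3538 ± 465 in WT mice (SD, n = 5 each), a log2 fold change of -0.51 (standard error 0.13, limma adjusted p = 0.0274). The brightest probe set, 1433470_a_at, had 6508, 6415, 5834, 6268 and 5287 in D257A mice, against 7248, 6335, 6904, 6888 and 6888 in WT mice, and its log2 fold change of -0.18 was not called (95% interval -0.37 to 0.01, limma adjusted p = 0.246). The third, 1429534_a_at, was at -0.20 (limma adjusted p = 0.222), with 4611 to 5714 in D257A mice, against 5342 to 6414 in WT mice. The call of 1429533_at was lost under 11 of 19 alternatives, 6 of which left out 1 mouse (D257A 2-17M, 2-25M or 2-30M, or WT 1-12M, 2-3M or 2-32M), at limma adjusted p between 0.0536 and 0.0844, and with the first digit as a block it was -0.53 (limma adjusted p = 0.0782).

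Members differed in how much the WT mice spread. Mfn2, Opa1, Dnm1l and Mff spanned 0.219, 0.285, 0.283 and 0.460 on the log2 scale among D257A mice, against 0.794, 0.986, 1.186 and 0.982 among WT mice. On the scaled signal, WT mouse 1-13M was the lowest WT mouse for 7 of the 9 genes and WT mouse 3-18M the highest for 5. Both held at once for Mfn2, Opa1, Dnm1l, Mff and Yme1l1. Over all tested genes these shares were 34.2%, 24.6% and 14.9%. The array of 1-13M had the smallest scale factor of the WT arrays, 3.885 against 4.3096 to 5.2903 for the others. The order of the mice before scaling was not examined, and it can differ from this one. Mfn1 and Fis1 ran the other way, with 3-18M as their lowest WT mouse. The SD of log2 signal was smaller in D257A mice for 7 of 9 members, with a median ratio of 0.526, against 66% of all tested genes and a median ratio of 0.779. Fis1 and Immt were the 2 with a larger SD in D257A mice.

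**Figure D3:**
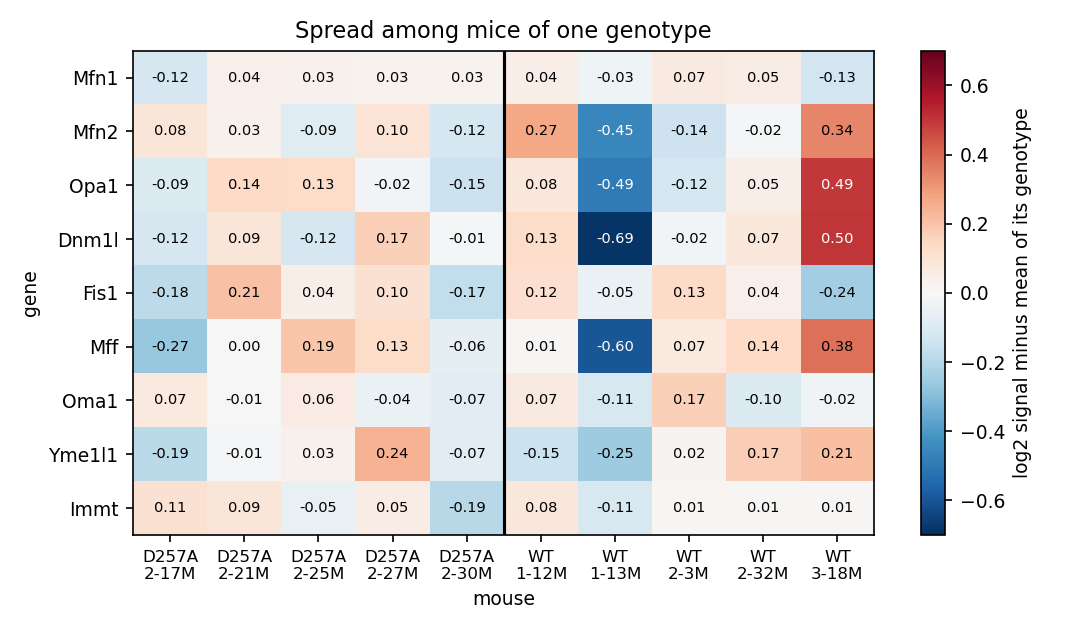
Log2 signal of the brightest probe set of each gene (rows) in each mouse (columns, D257A left of WT) minus the mean of that mouse's genotype; blue is below the mean and red above it. WT mouse 1-13M is at -0.45 to -0.69 for Mfn2, Opa1, Dnm1l and Mff, where WT mouse 3-18M is at 0.34 to 0.50.

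Genes with the pattern most like each member over the 10 mice were sought among 11215 tested genes, after subtracting the mean of each genotype. The measure was Pearson's r between brightest probe sets, given as a description, and the points share the 10 arrays, with WT mice 1-13M and 3-18M far from the rest for several members. Without these 2 mice, r between members fell from 0.68 to -0.28 for Mfn2 with Mff and from 0.89 to 0.28 for Opa1 with Dnm1l. It rose from 0.10 to 0.80 for Mfn1 with Mff. Other pairs changed little, such as Mff with Yme1l1 (0.84 with all mice, 0.78 without the 2) and Mfn2 with Immt (0.62 and 0.67). These pairs are named after their values were seen. The highest of 11215 values over 10 mice can be high through the search alone, which was not tested. The nearest for Mfn1 were Alad (r = 0.97) and Acads (r = 0.94), for Mfn2 Parp3 (r = 0.97) and Palmd (r = 0.96), and for Opa1 Exoc5 and Sumf1 (r = 0.97 each). For Dnm1l they were Rngtt (r = 0.99) and Atp5h (r = 0.98), for Mff Fen1 and Mtmr6 (r = 0.98 each), and for Fis1 Fitm1 and 2300009A05Rik (r = 0.94 each). For Oma1 they were Fbxo45 (r = 0.93) and Atp1b3 (r = 0.92), for Yme1l1 Kpna4 (r = 0.95) and Cahm (r = 0.94), and for Immt Tmem19 (r = 0.97) and Fbxo3 (r = 0.95). No member was among the 2 nearest genes of another member.

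Of 60 other genes of mitochondrial shape in 5 lists, 58 had a probe set that named them alone, and 56 were tested, since Mtfr2 and Pld6 lay under the filter. Of the 56, 4 (7.14%) were lower in D257A mice and 0 higher, where 3.52% of all tested genes were lower and 3.71% higher. Their median log2 fold change was -0.10, against -0.01 over all tested genes, and 36 of the 56 were negative. Among 12 partners of Immt in the MICOS complex and the outer membrane sorting machinery, Mtx2 was lower and 11 were not called (median log2 fold change -0.08). Mtx2, an outer membrane protein that binds the sorting machinery, had 1579, 1706, 1863, 1801 and 1641 in D257A mice, against 2825, 1972, 2453, 2314 and 3050 in WT mice. The genotypes did not overlap, and the log2 fold change was -0.54 (standard error 0.13, limma adjusted p = 0.0209). Mtx2 was not called with the first digit as a block (-0.47, limma adjusted p = 0.122), with arrays centred on the median (-0.41, limma adjusted p = 0.0797), or without D257A mouse 2-17M or WT mouse 1-12M (limma adjusted p = 0.0581 and 0.0626). The MICOS subunits Chchd3 (0.04), Chchd6 (-0.13), Apoo (0.09), Apool (-0.24), Micos10 (-0.33) and Micos13 (0.16) had log2 fold changes of either sign that were not called, and they are named after their values were seen, as are Gdap1 and the transport genes.

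Among 20 tested accessory fission and fusion factors 3 were lower in D257A mice and 17 were not called (median log2 fold change -0.12). Mtfp1, an inner membrane protein that promotes fission, had 1513, 1712, 1450, 1563 and 1503 in D257A mice, against 3000, 1596, 3067, 2773 and 2997 in WT mice. WT mouse 1-13M lay among the D257A mice, far below the other WT mice, and the log2 fold change was -0.76 with it (standard error 0.17, limma adjusted p = 0.0146) and -0.94 without it (limma adjusted p = 3.81e-05). Mtfr1, a fission regulator, ranged from 979 to 1433 in D257A mice, against 1368 to 2828 in WT mice (log2 fold change -0.66, limma adjusted p = 0.0333). Mief2, an outer membrane receptor of Dnm1l, ranged from 1192 to 1650 in D257A mice, against 1530 to 2390 in WT mice (log2 fold change -0.50, limma adjusted p = 0.0398). The call of Mtfr1 held in 9 of 19 alternatives and that of Mief2 in 7, and with the first digit as a block Mtfr1 was not called (-0.63, limma adjusted p = 0.0888). Gdap1, a fission factor of the outer membrane, had the lowest log2 fold change of the list, -1.38, and was not called (limma adjusted p = 0.0811), with 255 to 387 in D257A mice, against 175 to 1775 in WT mice.

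The 3 remaining lists had 0 called genes. They were prohibitins, inner membrane proteases and scaffolds (10 tested, median log2 fold change -0.10), synthesis and remodelling of cardiolipin, the lipid of the inner membrane that Opa1 binds (9 tested, median 0.01), and transport along microtubules (5 tested, median -0.42). Within transport, the adaptors Trak1 and Trak2 were at -0.57 and -0.42 and the GTPase Rhot2 at -0.42 (limma adjusted p = 0.0691, 0.126 and 0.0883). Rhot1 was at 0.06 and Kif5b at -0.03 (limma adjusted p = 0.74 and 0.943). Without WT mouse 1-13M, 11 genes of the 5 lists were lower and 1 higher, where 8.33% of all tested genes were lower and 7.78% higher.

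**Figure D4:**
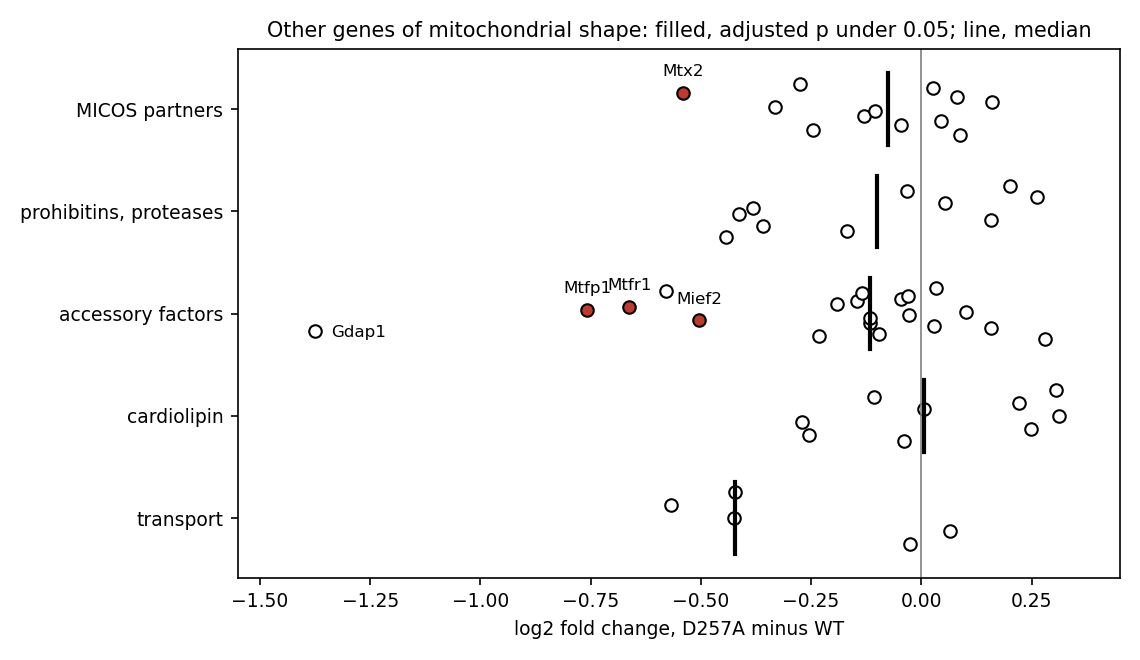
Log2 fold change (D257A minus WT) of 56 other tested genes of mitochondrial shape in 5 lists, 1 point per gene from its brightest probe set, with filled points at an adjusted p under 0.05 and a vertical line at the median of each list. The 4 filled points, Mtx2, Mtfp1, Mtfr1 and Mief2, lie between -0.76 and -0.50, and the median of the transport list is at -0.42.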

How the data were processed

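Total RNA of gastrocnemius from 5 D257A and 5 WT mice was measured on 10 arrays, 1 per mouse, grouped by the genotype in the labels. The intensity values deposited by the authors are 1 linear signal per probe set, made with GCOS 1.3 per the submitters' processing notes; how the probes were summarised is not stated there. A scaling target of 500 is stated for them, but the trimmed means of the columns (2% left out at each end) were far lower, so each array was rescaled to 500 and log2 was taken. Arrays give no read depth, and the number of mice limits precision.

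Probe sets were named through GEO's platform annotation: 34945 had 1 symbol, 932 several and 9160 none here. After removal of 64 AFFX controls, 45037 probe sets were left, and the brighter 22518 by mean log2 signal (over 6.265) entered the fit. Genotypes were compared by limma (lmFit, eBayes with a trend, no covariates; version 3.58.1 under R 4.3.3) with Benjamini-Hochberg adjustment and a threshold of 0.05, and each gene was read from its brightest probe set. On simulated data of 22518 probe sets with the real means and spread, this fit recovered 7% of 100 changes of 0.5 and 58% of 100 changes of 1 on the log2 scale, with 6 false calls. No other probe set was changed there, while 843 were called lower and 819 higher in the real data. The adjustment depends on the share of changed probe sets, so these percentages do not carry over to the real comparison. Pairs of genes were compared by a 2-sided exact permutation test. Python 3.11.15 made the tables (pandas 2.3.3, NumPy 2.4.6), the permutation tests (SciPy 1.17.1) and the figures (matplotlib 3.10.9).

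The members, gene lists and tests were chosen with earlier results of these data known. Named were all members, up to 4 called genes of each list by adjusted p, the 2 nearest genes of each member, and marker genes by brightness or by call. The alternatives were no scaling, quantile normalization, arrays centred on the median, no filter, an offset of 32, no variance trend, the methods' equal-variance test of independent groups, a block for the first digit of each mouse's number (2 in all D257A mice, and 1, 2 or 3 in WT mice, with a meaning that is not stated), only mice numbered 2, each mouse left out, and the mean of all probe sets of a gene. The block and the mice numbered 2 give the same log2 fold changes, since only WT mice have 1 or 3, although they count as separate alternatives. The study's supplement gives males and its methods both sexes, and males were taken. The study's qPCR, protein and enzyme measurements and its mice of other ages were not analysed here.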

Additional observations from a re-analysis of the deposited data

Results flagged for a closer look

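Among 52 sets of 5 mice of 1 genotype, for the 22 tested member probe sets and the 4 called genes of the wider lists, 2 held a mouse whose gap to the nearest other mouse was over 0.71 of the whole range, and chance gives about 5% of such sets. On the brightest Mfn1 probe set, 1426773_at, D257A mouse 2-17M was low, at 4384 where the other 4 D257A mice were between 4851 and 4886 (gap 0.930 of the range), and without it the log2 fold change was -0.37 (limma adjusted p = 0.0418). On Mtfp1 1424223_at, WT mouse 1-13M was low, at 1596 where the other 4 WT mice were between 2773 and 3067 (gap 0.800 of the range).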

How the results depend on the processing

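Of 19 alternatives, the call of Mfn1 1426773_at held in 18 (log2 fold change -0.47 to -0.26), Mfn1 1449697_s_at in 14, Immt 1429533_at in 8, Mtfp1 1424223_at in 18, Mtx2 1430500_s_at in 15, Mtfr1 1451536_at in 9 and Mief2 1434072_at in 7, with no change of sign. Leaving out 1 mouse ended the call of Mtx2 (D257A 2-17M or WT 1-12M), Mtfr1 (D257A 2-17M, 2-21M or 2-30M, or WT 1-12M, 2-3M or 2-32M) and Mief2 (D257A 2-17M, 2-21M, 2-25M or 2-30M, or WT 1-12M, 2-3M or 2-32M). The 3 called member probe sets became 0 with arrays centred on the median, 1 with the leading digit as a block, 1 without a variance trend, and 1 to 9 with each mouse left out (1 without WT 1-12M, 1 without WT 2-3M, 9 without WT 1-13M); the cause was not tested. The 4 lower and 0 higher genes of the wider lists became 1 and 1 with centred arrays, 2 lower with the digit as a block, 1 lower with the methods' test, 2 lower without a trend, 7 and 1 with only mice numbered 2, and 1 to 11 lower and 0 to 1 higher with each mouse left out (1 lower without D257A 2-17M or WT 1-12M, 2 without D257A 2-21M, D257A 2-30M, WT 2-32M or WT 2-3M, 11 without WT 1-13M). Over all probe sets, 843 were lower and 819 higher (50.7% of calls lower), against 418 and 1599 centred (20.7% lower), 271 and 291 with the digit as a block, 493 and 540 by the methods' test, 541 higher with no filter, 356 higher with no scaling (70.6% lower), 515 higher without a trend, and 402 to 1784 lower and 450 to 1655 higher with each mouse left out (fewest lower without WT 1-12M, fewest higher without D257A 2-17M, most of both without WT 1-13M). The methods' test at an unadjusted p under 0.05 gave 9 lower (40.9%) and 1 higher (4.55%) of the 22 member probe sets, where 11.9% of all probe sets were lower and 10.3% higher, and 2 and 0 after Benjamini-Hochberg. Signs changed for differences near 0. Centred arrays gave 0.0892 for Fis1 1416764_at, 0.13 for Fis1 1443819_x_at, 0.0335 for Mff 1456736_x_at, 0.0068 for Oma1 1424299_at and 0.13 for Yme1l1 1423361_at. The digit as a block and only mice numbered 2 both gave 0.19 for Fis1 1443819_x_at and 0.35 for Yme1l1 1423361_at, quantile normalization 0.0068 for both, and no scaling -0.0536 for Mff 1451572_a_at. With each mouse left out, Fis1 1416764_at ranged from -0.10 to 0.0010, Fis1 1443819_x_at from -0.0680 to 0.0627, Mff 1451572_a_at from -0.0524 to 0.13, Yme1l1 1423361_at from -0.12 to 0.12, and Yme1l1 minus Oma1 from -0.12 to 0.0212. The mean of all probe sets, dim ones included, gave 0.0383 for Mfn2, 0.0124 for Yme1l1 and 0.14 for Yme1l1 minus Oma1, and took Mfn1 out of the calls (-0.45, limma adjusted p = 0.0664). No paired analysis was possible because the mouse numbers are not shared between the genotypes.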
